A study of Monodelphis domestica and Mus musculus with 26 samples.

Results

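The cells described here are adult gray short-tailed opossum (Monodelphis domestica) testis cells that carry transcripts of elongating spermatids. They were chosen by a gate on 5 genes (PRM1, GPR161, MSMP, PKHD1L1 and YIPF5) in 3 droplet-based single-cell RNA-seq libraries. A barcode was kept with at least 1000 counts and 500 genes, and a kept cell was a member where the 5 genes together made up at least 0.5% of its counts and at least 5 counts. This gave 2984 of 5572 kept cells in replicate 1, 3029 of 8126 in replicate 2 and 3610 of 8049 in replicate 3. In all, 9623 of 21747 kept opossum cells were members, and the other 12124 served for comparison. The gate used the measured counts, so the contrast of members with other cells is a description without a test.

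The study compared spermatogenesis in mouse and opossum. Its single-cell libraries came from dissociated testes of adult opossums (3 libraries) and of adult C57BL6/J mice of 8 to 16 weeks (3 libraries). Opossum testes were also sequenced in bulk at 1 month (2 libraries), 2 months (4), 3 months (4), 4 months (3) and in adults (7). No group had a genotype change or a drug treatment, and all tissue was dissociated with enzymes before RNA isolation, per the labels' protocols. PolyA RNA was selected for 16 of the 20 bulk libraries, and the other 4 (replicates 2 to 4 of 2 months and replicate 2 of the adults) were depleted of rRNA. The labels do not say that replicates are separate animals, so p-values measure only the spread between these samples.

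Elongating spermatids are the last haploid germ cells before release as sperm. In them histones give way first to transition proteins and then to protamines, the nucleus is shaped by a microtubule sheath called the manchette, the flagellum gains its outer dense fibres and fibrous sheath, and most cytoplasm is shed. Transcription stops as the chromatin condenses, so that stored messenger RNAs are translated later. PRM1 encodes the protamine that packs sperm DNA. GPR161 is a receptor of the primary cilium that restrains hedgehog signalling, MSMP is a secreted microseminoprotein, PKHD1L1 is a large membrane protein related to fibrocystin, and YIPF5 is a membrane protein of the early secretory pathway.

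Most cells past the gate matched the elongating-spermatid label in part. In 9047 of the 9623 members the 5 genes made up less than 4% of the counts. These cells carried other spermatid transcripts, given below, together with RNA of other testis cell types, and 8.84%, 9.45% and 30.7% of them passed a somatic marker gate. The remaining 576 members, 78, 352 and 146 in replicates 1, 2 and 3, held a gate share of 4% or more and had little somatic RNA. The limit of 4% was chosen after the values had been seen. Lists of sperm genes are counted in both sets, called members (or gated cells) and members at 4% and more.

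The gate share had no gap at 0.5%. Members made up 53.6% of kept cells in replicate 1 (95% exact binomial interval 52.2 to 54.9), 37.3% in replicate 2 (36.2 to 38.3) and 44.9% in replicate 3 (43.8 to 45.9); these intervals cover counting error only. The median gate share of members was 1.33%, 0.966% and 0.982%. Their highest shares were 18.7%, 24.1% and 16.5%. Just inside the limit, at 0.5 to 0.6%, lay 199, 476 and 429 cells, and just outside it, at 0.4 to 0.5%, lay 192, 505 and 452. PRM1 alone supplied 87.6%, 88.6% and 81.6% of the members' gate counts, and a gate on the other 4 genes would have kept 4.87% of cells on average in place of 45.2%.

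**Figure D1:**
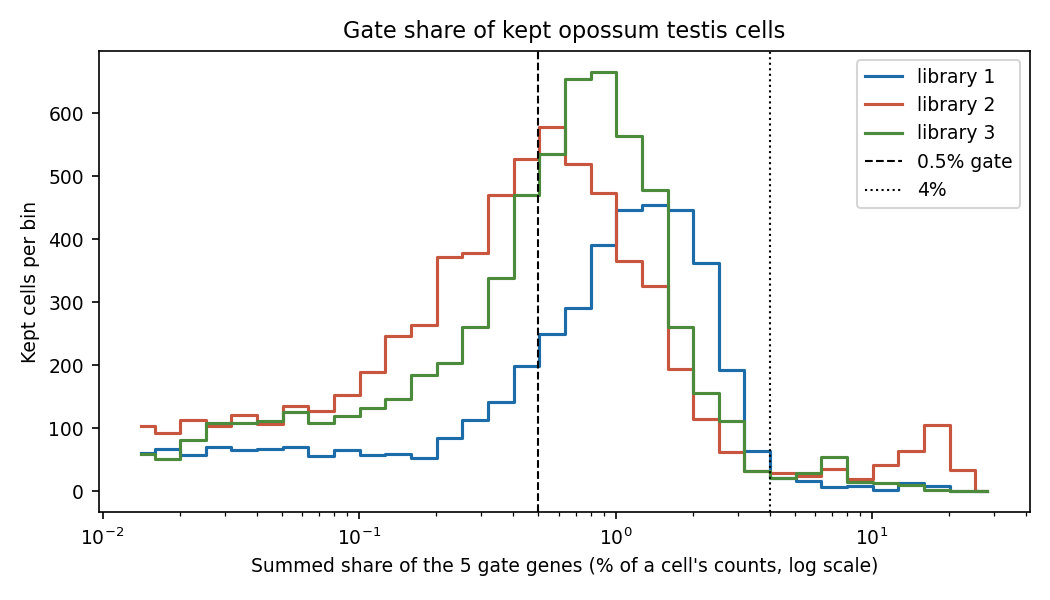
Number of kept opossum cells (y axis) by the summed share of the 5 gate genes in percent of a cell's counts (x axis, log scale), one line per library; cells at or below 0.01% are not drawn. The 0.5% gate (dashed) cuts through a single broad hump in each library, and a separate, smaller group of cells lies above 4% (dotted), mainly in replicate 2.

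Depth, doublet score and somatic RNA differed along the gate share. Members below 4% had a median of 1316, 1496 and 1321 counts per cell against 3761, 2774 and 2048 in cells outside the gate and 4973, 8286 and 8097 in members at 4% and more. After thinning to 1000 counts per cell, the median number of genes was 726, 763 and 777 below 4%, close to the 707, 741 and 758 outside the gate, and 515.5, 423.5 and 529.5 at 4% and more. In those high-share cells the 100 genes with the most counts held 44.1%, 49.7% and 43.4% of all counts, against 18.4%, 20.01% and 17.9% outside the gate. Thus the few high-share members combined deep counts with a narrow set of transcripts, and the many low-share members were shallow and about as diverse as other testis cells. Among the 8% of kept cells with the highest doublet score in each library were 10.5%, 12.7% and 10.2% of members, 7.19%, 6.32% and 6.87% of other cells. Of the members at 4% and more, 0 cells of replicate 1, 92 of replicate 2 (26.1%) and 38 of replicate 3 (26.03%) were among them, a larger share in replicates 2 and 3 than for other cells.

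PRM1 counts also occurred in barcodes that are not kept cells and in cells of other types. Barcodes under the depth limits (5344, 4730 and 4377) had a gate share of 2.04%, 1.14% and 1.56% of their summed counts, and PRM1 at 16969, 9330 and 13275 CPM (counts scaled to a common total, 1000000 per group). Kept cells outside the gate had 0.0579%, 0.105% and 0.0969%, and members below 4% had 1.36%, 1.35% and 1.27%. The barcodes under the limits thus lay above the members below 4% in replicates 1 and 3 and under them in replicate 2. HMGB4, a germ-line gene outside the gate described below, was at 3577, 1755 and 2225 CPM in these barcodes. In members below 4% it was at 3113, 4076 and 3343 CPM. Among kept cells past an immune-marker gate and no other, at least 1 PRM1 count was found in 0% of cells in replicate 1 (of 119, which allows a share of up to 2.52%), 65.4% in replicate 2 (of 324) and 33.9% in replicate 3 (of 363), with median depths of 7287, 2882 and 2232 counts. In those immune-marker cells, taken outside the member gate by choice, the gate genes made up 0%, 0.0882% and 0.0625% of the counts. Of all cells past the immune-marker gate, 0 of 123, 16 of 345 and 51 of 420 were members. Peritubular-marker cells chosen in the same way held at least 1 PRM1 count in 36.5%, 66.7% and 77.0% of 540, 744 and 868 cells. Leydig-marker cells did so in 31.0%, 15.1% and 5.76% of 87, 397 and 573 cells. The part of free RNA in the low-share members was not tested. Between 30 and 43 barcodes were shared by any 2 opossum libraries, of which at most 2 were members in both.

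Peritubular and Leydig marker lists were lowest at 4% and more. Peritubular and stromal markers (13 genes, such as smooth-muscle and collagen genes) summed to 3279, 2770 and 3142 CPM outside the gate, 1943, 884 and 3720 CPM at a gate share of 0.5 to 1%, 894, 226 and 417 CPM at 2 to 4%, and 117, 93.1 and 112 CPM at 4% and more. Leydig cell markers (7 genes of steroid synthesis and its control) summed to 1711, 2192 and 2412 CPM outside the gate, 2230, 803 and 985 CPM at 0.5 to 1%, and 102, 82.5 and 39.03 CPM at 4% and more. Members at 0.5 to 1% thus overlapped cells outside the gate in both lists. Members below 4% as a whole had peritubular markers at 1470, 546 and 2398 CPM. Among all members, those at 4% and more included, the sum differed with depth. Members with 1000 to 1500 counts held 1329, 1199 and 3922 CPM, those with 1500 to 2500 counts 1909, 1743 and 3792 CPM, and those with 2500 and more 696, 148 and 99.4 CPM. In replicate 3 the 2470 and 773 members of the shallower groups therefore lay above the cells outside the gate, and the 367 deep ones far under them. With median depths of 4973, 8286 and 8097 counts, members at 4% and more fell mostly in the deepest group. Depth and gate share are thus mixed in it, and depth alone was not tested below 4%. Members at 4% and more lay at least an order of magnitude under the outside cells in every library for both lists. Immune markers summed to 686, 501 and 747 CPM outside the gate and 28.7, 17.6 and 87.5 CPM at 4% and more, the value of replicate 3 lying above its 72.3 CPM at 2 to 4%. Past any somatic marker gate were 8.65%, 8.39% and 29.5% of all members, 35.7%, 33.5% and 48.1% of other cells, and 1, 1 and 0 of the members at 4% and more. The markers at 0 in members at 4% and more were INHBB and SOX8 (Sertoli cells), NR5A1 (Leydig cells), MGP (peritubular cells), and CDH5 and ESAM (endothelium), and 1 Sertoli marker was at 0 below 4% as well. Markers also went the other way: CNN1, a smooth-muscle calponin on the peritubular list, was called higher in members, with means of 34.4 CPM against 7.09 CPM in other cells, and at 4% and more, with 66.5 CPM. NKG7, a granule protein of cytotoxic lymphocytes on the immune list, was called higher in members, with 56.02 against 19.5 CPM, and was at 32.4 CPM and not called at 4% and more. Of the 9 Sertoli, 7 Leydig, 13 peritubular, 9 endothelial and 9 immune markers, 1, 2, 2, 0 and 1 reached 10 CPM there, against 4, 5, 10, 1 and 4 in members below 4% and 6, 6, 10, 5 and 8 outside the gate.

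**Figure D2:**
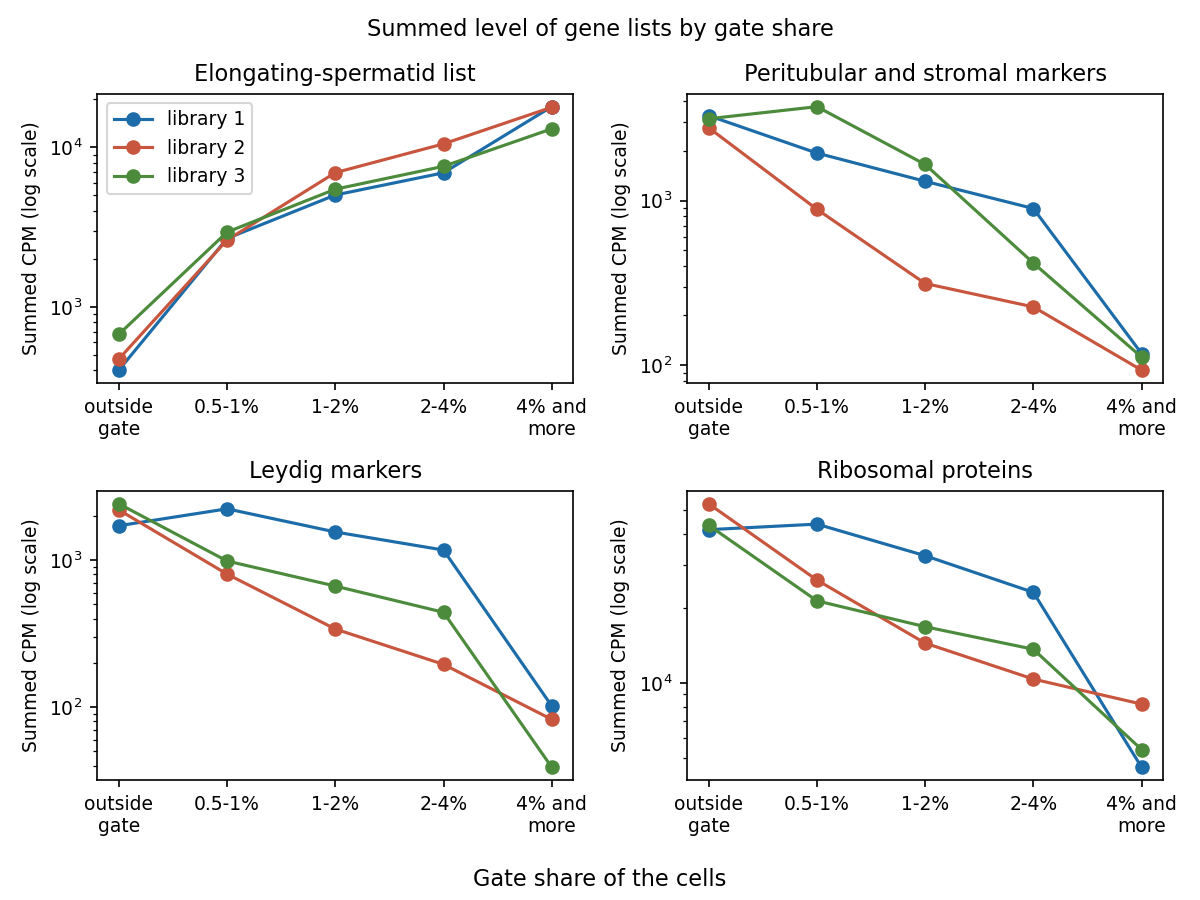
Summed CPM (y axes, log scale) of 4 gene lists in cells grouped by gate share (x axes), one line per opossum library. The elongating-spermatid list is higher in each step of the gate share in all 3 libraries, and both somatic lists are at most 117 CPM at 4% and more.

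Markers of elongating spermatids that the gate did not use were higher in members. For these contrasts a gene was called where the ratio of (CPM + 5) was at least 2-fold in the same direction in all 3 libraries. Of 11861 genes whose mean reached 10 CPM in members or in other cells, 1446 (12.2%) were called higher in members and 2849 (24.0%) lower, and the median log2 ratio was -0.85. All 12 such markers were called higher, with a median log2 ratio of 3.61, and all 12 were in members below 4% too, with a median of 3.25. Their summed level was 402, 472 and 674 CPM outside the gate, 2684, 2624 and 2942 CPM at 0.5 to 1%, and 17964, 17808 and 13050 CPM at 4% and more. Sums weight each cell by its counts, so levels printed for members lean towards the deep ones. In the 1883, 1355 and 2470 members with 1000 to 1500 counts this list was at 4218, 2507 and 2611 CPM. In the 301, 856 and 367 members with 2500 counts and more it was at 11940, 10528 and 9231 CPM. Against the same outside cells, members at 4% and more had 1338 of 11765 genes (11.4%) higher and 8253 (70.1%) lower, with a median log2 ratio of -2.14. Of 11910 genes, members below 4% had 1417 (11.9%) higher and 1899 (15.9%) lower. Set against members below 4%, members at 4% and more had 281 of 9651 genes (2.91%) higher and 5071 (52.5%) lower, and 7 of the 12 markers were among those higher and none among those lower. Every gene's counts share the cell total with PRM1 and the other abundant transcripts, so a lower CPM is a lower share of a cell's RNA. Counts in members were used by the gate, and nothing is supported by these calls beyond the description.

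The 5 gate genes differed in how far they separated members. PRM1 (chromosome 6, 110070341 to 110070867, plus strand, coordinates as the bulk tables give them) was at 24024, 36928 and 17077 CPM in members and at 321, 637 and 650 CPM in other cells. Its median fold was 57.5 in members and 173 in members at 4% and more, where it reached 75415, 111126 and 60365 CPM. GPR161 (chromosome 2, 60090624 to 60140067, minus strand) was at 1274, 2151 and 1682 CPM in members and 16.5, 34.2 and 44.9 CPM in other cells, a median of 55.0-fold in members and 86.3-fold at 4% and more. All 5 genes are in the gate, so that the separation of each is built in. YIPF5 (chromosome 1, 336982991 to 336994181, minus strand), at 290, 331 and 424 CPM in members, was 24.2-fold higher. MSMP (chromosome 6, 122604600 to 122605593, plus strand), at 1341, 1661 and 982 CPM, was 7.51-fold higher, and PKHD1L1 (chromosome 3, 377351765 to 377598749, plus strand), at 506, 603 and 760 CPM, 6.02-fold. MSMP and PKHD1L1 were also found outside the gate, at 154, 273 and 126 CPM and at 79.9, 92.5 and 124 CPM.

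Of 6 measured genes of the sperm chromatin list other than PRM1, 2 (TNP1 and TSSK6) were higher in members and 1 was lower, against 12.2% and 24.0% of all genes. At 4% and more the same 2 were higher and the other 4 (BRDT, RNF8, KAT5 and EPC1) lower, against 11.4% and 70.1%. TNP1, the transition protein that replaces histones before protamines, was at 518, 1114 and 747 CPM in members, 8.84, 40.5 and 72.9 CPM in other cells, and 1598, 3036 and 2770 CPM in members at 4% and more. HMGB4, a high-mobility-group protein of the male germ line that is not on this list, was at 4612, 4895 and 4542 CPM in members and 143, 282 and 221 CPM in other cells. In neither gene did the 2 groups overlap, and TNP1 was a median of 24.6-fold and HMGB4 20.1-fold higher. A histone H4 gene with the symbol HIST1H4I, also outside the list (chromosome 2, 494698051 to 494698362) was at 2342, 2957 and 2681 CPM in members, 32.7, 62.7 and 91.4 CPM in other cells and 7593, 7265 and 11049 CPM at 4% and more. Other features carry the same symbol and counts may be split among near-identical H4 copies, so this value is uncertain.

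All 8 measured genes of the outer dense fibres and fibrous sheath, the flagellum's accessory structures, were called higher in members, where 12.2% of all genes were. In members at 4% and more 7 were, against 11.4% of all genes, ODF3L1 being at 8.32 CPM there against 26.2 CPM outside the gate. ODF2, a scaffold protein of the dense fibres, was at 1913, 1974 and 1457 CPM in members, 165, 172 and 196 CPM in other cells and 4742, 4099 and 3365 CPM at 4% and more. SPA17, a protein-kinase-A anchoring partner in the sheath, was at 2833, 3433 and 3468 CPM in members against 147, 309 and 330 CPM, and its binding relative ROPN1L at 1835, 2337 and 2100 CPM against 134, 287 and 217 CPM. AKAP4, the main anchoring protein of the sheath, lies on the X chromosome (73222715 to 73230119, plus strand). It was at 1190, 1252 and 747 CPM in members, 59.6, 80.1 and 122 CPM in other cells, and 3027, 2576 and 1556 CPM at 4% and more. The X-linked gene was thus highest, of these groups, in members at 4% and more.

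Counts for the axoneme, the microtubule core of the flagellum, were nearer to those of all genes. Of 38 measured axoneme genes 6 were higher and 5 lower in members, against 12.2% and 24.0% of all genes. In members at 4% and more 2 of 37 were higher and 28 lower, against 11.4% and 70.1% of all genes. The difference between the axoneme and sheath lists was not tested. TEKT2, a tektin inside the doublet microtubules, was at 325, 453 and 195 CPM in members, 83.4, 146 and 74.0 CPM in other cells and 21.1, 16.7 and 9.95 CPM at 4% and more. DNAH8, a dynein heavy chain, was at 58.0, 215 and 209 CPM in members, 555, 476 and 531 CPM in other cells and 3.42, 10.3 and 3.78 CPM at 4% and more. HYDIN, a protein of the central pair, showed the same order, with 299, 279 and 322 CPM in other cells and 7.63, 6.63 and 3.97 CPM at 4% and more. GAS8, of the dynein regulatory complex, and SPACA9, a microtubule inner protein, were the 2 axoneme genes higher at 4% and more, with means of 357 and 1318 CPM against 20.2 and 18.7 CPM outside the gate.

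Head shaping and the acrosome gave mixed lists. Of 24 manchette and head-shaping genes 12 were higher and 2 lower in members, against 12.2% and 24.0% of all genes, and 12 and 7 at 4% and more, against 11.4% and 70.1%. ACTRT2, an actin-related protein of the sperm head, was at 264, 412 and 427 CPM in members, 7.09, 10.2 and 17.3 CPM in other cells and 621, 720 and 972 CPM at 4% and more. ACTL7B, another testis actin-like protein, was at 299, 402 and 271 CPM against 12.6, 18.4 and 13.6 CPM. CCIN (calicin) and CAPZA3, of the cytoskeleton around the sperm nucleus, were at 50.3, 76.3 and 77.0 CPM and at 103, 211 and 236 CPM in members, with at most 3.35 and 14.2 CPM in other cells. Both were lower at 4% and more than below it in replicates 2 and 3. Of 11 acrosome and egg-binding genes 4 were higher in members and none lower, and at 4% and more 3 were higher and 5 lower, beside the same shares of all genes. SPATA46, of the spermatid nuclear envelope, was at 330, 559 and 291 CPM against 29.5, 40.9 and 29.0 CPM. ZPBP, a zona-binding acrosome protein, had a mean of 77.6 CPM outside the gate and 1.17 CPM at 4% and more.

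Spermatid kinases, ion channels and fuel enzymes followed. TSSK3, one of the testis-specific serine kinases, was at 680, 892 and 336 CPM in members and 19.4, 23.9 and 26.9 CPM in other cells, and TSSK2 at 297, 541 and 344 CPM against 9.41, 13.5 and 13.8 CPM. Of 13 ion-channel and signalling genes 6 were higher and 2 lower in members, against 12.2% and 24.0% of all genes, and 6 and 5 at 4% and more. CATSPER3, a subunit of the sperm calcium channel, was at 74.5, 129 and 159 CPM against 8.73, 18.4 and 25.3 CPM, and ADCY10, the bicarbonate-sensing adenylyl cyclase, had means of 16.4 against 83.4 CPM. Of 13 genes of sperm energy metabolism 4 were higher and 1 lower in members, and 4 and 8 at 4% and more, where 11.4% of all genes were higher and 70.1% lower. GAPDHS, the sperm glyceraldehyde-phosphate dehydrogenase, was at 1285, 1629 and 973 CPM in members, 68.8, 57.4 and 86.4 CPM in other cells and 3295, 3092 and 1801 CPM at 4% and more. AK1, adenylate kinase, and PGAM2, phosphoglycerate mutase, were higher too, with means of 1281 and 500.2 CPM at 4% and more against 38.3 and 9.31 CPM. LDHC, the germ-cell lactate dehydrogenase, was at 580, 461 and 275 CPM in members and at 31.4, 16.0 and 14.5 CPM at 4% and more, below the 213, 320 and 232 CPM outside the gate.

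Genes of cytoplasm removal and translational control were split. Of 20 genes for ubiquitin, antizyme and cytoplasm removal, 7 were higher and 2 lower in members, against 12.2% and 24.0% of all genes. At 4% and more the balance turned, with 6 higher and 10 lower, against 11.4% and 70.1%. OAZ3, the antizyme of haploid germ cells that lowers polyamine synthesis, was at 599, 794 and 462 CPM in members, 12.9, 17.1 and 35.6 CPM in other cells and 1527, 1695 and 919 CPM at 4% and more. KLHL10, a substrate adaptor of a spermatid ubiquitin ligase, was at 148, 227 and 131 CPM against 11.2, 16.7 and 21.2 CPM. Of 21 genes of post-meiotic gene regulation 3 were higher and 5 lower in members, close to the shares of all genes, and 3 and 13 at 4% and more. The 3 higher genes were PAIP2, a repressor of poly(A)-binding protein, YBX2, which binds stored messages, and TENT5C, a poly(A) polymerase, with means of 726, 686 and 226 CPM at 4% and more against 64.6, 156 and 18.1 CPM outside the gate. PIWIL1, of the piRNA pathway, had means of 39.5 CPM in members, 158 CPM in other cells and 2.92 CPM at 4% and more.

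In lists tied to the roles of the other gate genes, the share called higher in members was at or under the 12.2% of all genes. Beside GPR161, 2 of 20 hedgehog-pathway genes were higher in members and 4 lower, the latter against 24.0% of all genes, and at 4% and more 3 were higher and 15 lower. GLI3, a transcription factor at the end of the pathway, was at 56.4, 62.9 and 54.0 CPM in members, 8.03, 7.76 and 5.98 CPM in other cells and 154, 131 and 115 CPM at 4% and more. KIF7, the kinesin that regulates GLI proteins at the cilium tip, was at 98.8, 87.1 and 78.7 CPM at 4% and more against 8.99, 7.74 and 14.4 CPM outside the gate. GNAS, the stimulatory G protein that acts downstream of GPR161, was at 1.37, 5.10 and 0.777 CPM at 4% and more against 180, 157 and 266 CPM. Beside YIPF5, 1 of 42 genes of Golgi and secretory traffic was higher in members and 11 lower, and at 4% and more 2 were higher and 35 lower. The gene higher in members was RAB1A, a small GTPase of transport from the endoplasmic reticulum, at 602, 727 and 462 CPM against 121, 155 and 100.6 CPM. Beside PKHD1L1, none of 6 genes of the polycystin and PKHD1 family was higher, and 1 was lower in members and all 6 at 4% and more. At 4% and more 11.4% of all genes were higher and 70.1% lower.

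Most housekeeping genes, like most genes, were lower at 4% and more. Ribosomal protein genes summed to 41507, 52763 and 43231 CPM outside the gate, 35034, 18781 and 18446 CPM in members below 4%, and 4576, 8222 and 5392 CPM at 4% and more. At 4% and more 34 of 40 ribosomal protein genes were lower and 1 higher, 34 of 46 genes of oxidative phosphorylation were lower and none higher, and 22 of 27 proteasome genes were lower and none higher. Among all genes 70.1% were lower in this contrast, close to the share in oxidative phosphorylation. Germ-cell markers of earlier stages were also present. Round-spermatid markers (10 genes) summed to 599, 652 and 690 CPM outside the gate, 810, 1556 and 1061 CPM below 4% and 1097, 761 and 1155 CPM at 4% and more. Within the last group they were at 1433, 1282.5 and 1238 CPM at a gate share of 4 to 8% and at 315, 668 and 571 CPM at 8 to 16%. Spermatocyte markers summed to 1321, 1150 and 1195 CPM outside the gate and 682, 780 and 698 CPM at 4% and more. Spermatogonial markers summed to 2044, 585 and 674 CPM in members below 4%, where replicate 1 was close to its own cells outside the gate at 2049 CPM, and to 205, 174 and 119 CPM at 4% and more.

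The 25 leading genes, those with a symbol, at least 100 CPM in members of every library and the largest median ratio, included few genes of the lists above. TMEM239, a membrane protein of unstated role in the sources used here, was at 1056, 1854 and 738 CPM in members, 13.5, 36.5 and 36.5 CPM in other cells and 2851, 4087 and 1773 CPM at 4% and more, a median of 44.8-fold in members. ABHD16B, an abhydrolase-domain protein, was at 2770, 3425 and 1583 CPM against 39.7, 76.4 and 106 CPM, and reached 8958, 10124 and 5250 CPM at 4% and more. The ring-finger gene RNF151 was at 804, 1194 and 1037 CPM against 18.0, 29.0 and 21.1 CPM, and RNF148, another, at 236, 224 and 314 CPM against 1.84, 1.71 and 1.97 CPM. Deep cells carried much of these sums: RNF148 was at 480, 279 and 632 CPM in the 301, 856 and 367 members with 2500 counts and more, and at 67.8, 19.2 and 16.3 CPM in the 1883, 1355 and 2470 members with 1000 to 1500 counts. RNF151 was at 1556, 1482 and 2052 CPM in the deep and 278, 116 and 87.7 CPM in the shallow group, and CLK4, GLIPR1 and CNGB3 were likewise lower in the shallow group in every library, so that most members lay under the printed levels of these genes. MCFD2, a cargo receptor partner in the early secretory pathway, was at 906, 1258 and 1102 CPM against 13.2, 24.7 and 40.3 CPM. CLK4, a kinase of splicing factors, was at 898, 974 and 1622 CPM in members and varied at 4% and more, with 2136, 994 and 3561 CPM.

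THRB, the thyroid hormone receptor beta gene (chromosome 8, 284255337 to 284511037, minus strand), was among them. It was at 1588, 1692 and 922 CPM in members, 49.7, 58.0 and 92.0 CPM in other cells and 4354, 4383 and 2514 CPM at 4% and more, a median of 26.9-fold in members. CNGB3, a subunit of the cone photoreceptor's cyclic-nucleotide-gated channel, was at 193, 351 and 326 CPM against 4.28, 5.85 and 8.31 CPM. BPGM, the enzyme that makes bisphosphoglycerate in red cells, was at 436, 1125 and 747 CPM against 12.4, 39.6 and 55.2 CPM. For all 25 genes the lowest library of members lay above the highest library of other cells, which choosing genes by their ratio makes likely. The other leading genes, from 25.3-fold to 39.8-fold in median ratio, were CCDC70, GLIPR1, TMEM247, C16orf90, TPRG1L, CLDND1, SPACA9, DUSP21, TPPP2, ARPP19, PLAAT1, CCDC43 and SPATA19, beside HIST1H4I, OAZ3 and TSSK3 above.

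**Figure D3:**
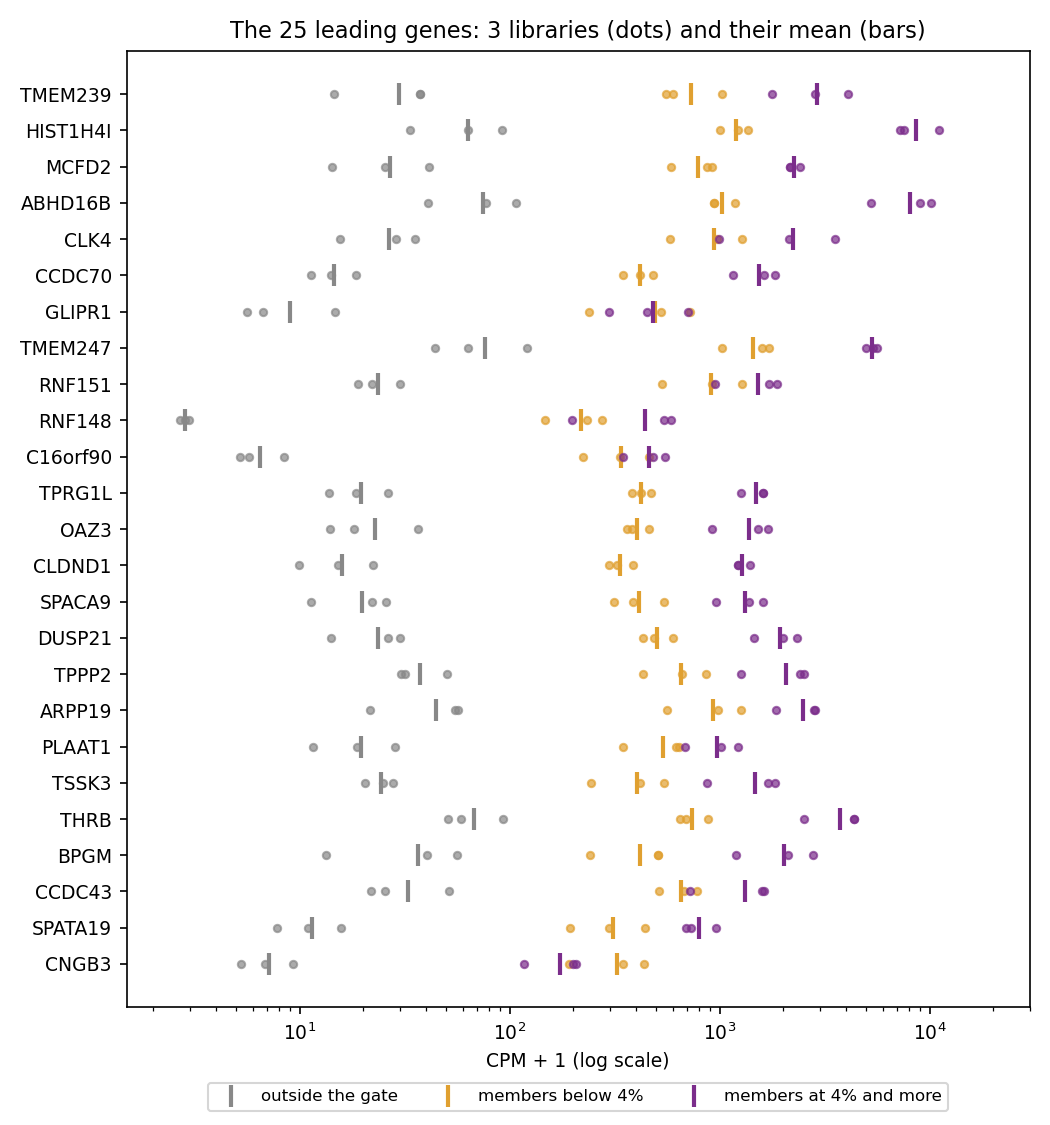
CPM + 1 (x axis, log scale) of the 25 leading genes in cells outside the gate (grey), members below 4% (orange) and members at 4% and more (purple), with 1 dot per opossum library and a bar at the mean. For most genes the purple bar lies above the orange one; for GLIPR1 it lies close to it and for CNGB3 below it.

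The 8 genes with the lowest ratios included 3 known from macrophages. SPP1, a secreted phosphoprotein of macrophages and other cells, was at 0.888, 20.5 and 89.4 CPM in members and 120, 303 and 1593 CPM in other cells. MRC1, the macrophage mannose receptor, was at 2.04, 9.92 and 16.99 CPM against 180, 193 and 224 CPM, and the complement gene C1QC at 0.107, 5.14 and 21.7 CPM against 162, 120 and 225 CPM. Replicate 1 was lowest and replicate 3 highest among members for these 3 genes. The others were FIGN, MCC, ZNF608, ZBTB20 and BNC2. Among the 10 genes with the most counts in members were PRM1, HMGB4, CA3 and FAM229B, and 6 without a symbol. CA3, a carbonic anhydrase, varied among libraries, at 9363, 1490 and 6418 CPM in members, 13549, 26470 and 19895 CPM in other cells and 273, 602 and 138 CPM at 4% and more. FAM229B, a small protein, was at 6472, 9805 and 6646 CPM in members against 902, 1856 and 1383 CPM.

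Of the genes without a symbol 2 are given. ENSMODG00000030245 (X chromosome, 73656233 to 73778508, plus strand) was at 5905, 8754 and 4445 CPM in members, 143, 192 and 458 CPM in other cells and 16355, 24880 and 15798 CPM at 4% and more. ENSMODG00000024131 (chromosome 6, 275094009 to 275094461, minus strand) was at 5380, 5374 and 6087 CPM in members and 27.4, 88.1 and 78.7 CPM in other cells. All 781 X-linked genes held 4.21%, 3.04% and 1.99% of counts in members, 4.21%, 4.98% and 3.37% at 4% and more, and 3.16%, 2.71% and 1.89% outside the gate. ENSMODG00000030245 supplied 14.0%, 28.8% and 22.3% of the X-linked counts in members, and a second X-linked gene without a symbol 14.8%, 26.7% and 14.1%, more than the first in replicate 1. ENSMODG00000030245 supplied 38.9%, 49.995% and 46.9% of the X-linked counts at 4% and more, and the second gene 31.6%, 26.8% and 25.9%. Without these 2 genes the X-linked share was 2.99%, 1.35% and 1.26% in members, 1.24%, 1.16% and 0.917% at 4% and more and 3.13%, 2.66% and 1.81% outside the gate. The order of members at 4% and more and other cells thus turned in each library. These 2 were picked as the X-linked genes with the largest share at 4% and more, so leaving them out lowers that group most. No top genes of the outside cells were left out in turn, and the turn is a description. Members below 4%, at 3.44%, 1.42% and 1.33% without the 2 genes, lay above the outside cells in replicate 1 and under them in replicates 2 and 3.

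Members at 4% and more were not uniform. A gate share of 4 to 8% was found in 45, 87 and 104 cells, 8 to 16% in 28, 128 and 41, and 16% and more in 5, 137 and 1. The last group was almost confined to replicate 2. Of 4692 genes with enough counts, 24 (0.512%) were called higher and 824 (17.6%) lower at 8 to 16% than at 4 to 8%. Of the 25 leading genes 1 was higher (ABHD16B) and 9 were lower (HIST1H4I, CLK4, GLIPR1, RNF151, RNF148, C16orf90, PLAAT1, CCDC43 and CNGB3), and of the 12 elongating-spermatid markers 3 were lower (AKAP3, CAPZA3 and CCIN). Deep cells supplied most of the counts at 4 to 8%: the cells with at least 10000 counts, 11 of 45, 47 of 87 and 64 of 104 at 4 to 8%, held 88.6%, 90.8% and 82.7% of the counts there. At 8 to 16% they were 13 of 28, 72 of 128 and 1 of 41 cells, with 80.6%, 82.4% and 10.3% of the counts. With each cell weighted equally, an alternative chosen after seeing the data, 10 of 6690 genes were higher and 676 lower, and 1 and 9 of the leading genes. All 9 were the same genes. AKAP3 and CCIN were lower with this weighting too, and CAPZA3 was not called.

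RNF151 was at 2671, 2569 and 1952 CPM at 4 to 8% and at 7.83, 85.1 and 11.1 CPM at 8 to 16%; with each cell weighted equally its means were 839.7, 1576 and 1695 CPM and then 38.4, 56.8 and 18.4 CPM. CCDC43, a coiled-coil protein, was at 2320, 1849 and 1801 CPM and then at 13.3, 138 and 85.9 CPM. AKAP3, a second anchoring protein of the fibrous sheath, was at 892, 633 and 661 CPM and then at 7.95, 80.5 and 87.7 CPM. These 3 genes were thus far lower in the cells with more PRM1, in all 3 libraries. CCIN was at 93.7, 79.9 and 57.7 CPM and then at 0, 0.6004 and 6.11 CPM. ENSMODG00000024131 was at 26267, 23709 and 25386 CPM and then at 5.76, 2566 and 1280 CPM.

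Other genes had higher values together with PRM1, of which those named here passed the 2-fold rule only for ABHD16B and ENSMODG00000030245. PRM1 itself, by the gate, was at 47667, 53065 and 53980 CPM at 4 to 8% and 134764, 112660 and 104417 CPM at 8 to 16%. ABHD16B was at 5919, 5005 and 4632 CPM and then at 16274, 10762 and 9543 CPM. THRB was at 2764, 2417 and 2234 CPM and then at 7923, 4416 and 4410 CPM, and in the 137 cells of replicate 2 at 16% and more at 6961 CPM. THRB, GAPDHS and OAZ3 had higher values at 8 to 16% in every library and were not called. ENSMODG00000030245 was at 10072, 11335 and 13142 CPM and then at 30427, 26423 and 34083 CPM, a call that was lost with each cell weighted equally (13020, 17889 and 14088 CPM and then 29403, 29986 and 36302 CPM). TNP1 had no common order, at 2104, 2952 and 2751 CPM and then at 484, 4849 and 2945 CPM, and was at 619 CPM in the cells of replicate 2 at 16% and more. HMGB4 was at 14365, 10712 and 12265 CPM and then at 1543, 8055 and 5505 CPM. Depth moved with these groups in part: the median was 3144, 14763 and 11399 counts at 4 to 8% and 8907, 11789 and 3160 counts at 8 to 16%, higher in replicate 1 and lower in replicates 2 and 3. Its part in the differences was not tested.

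**Figure D4:**
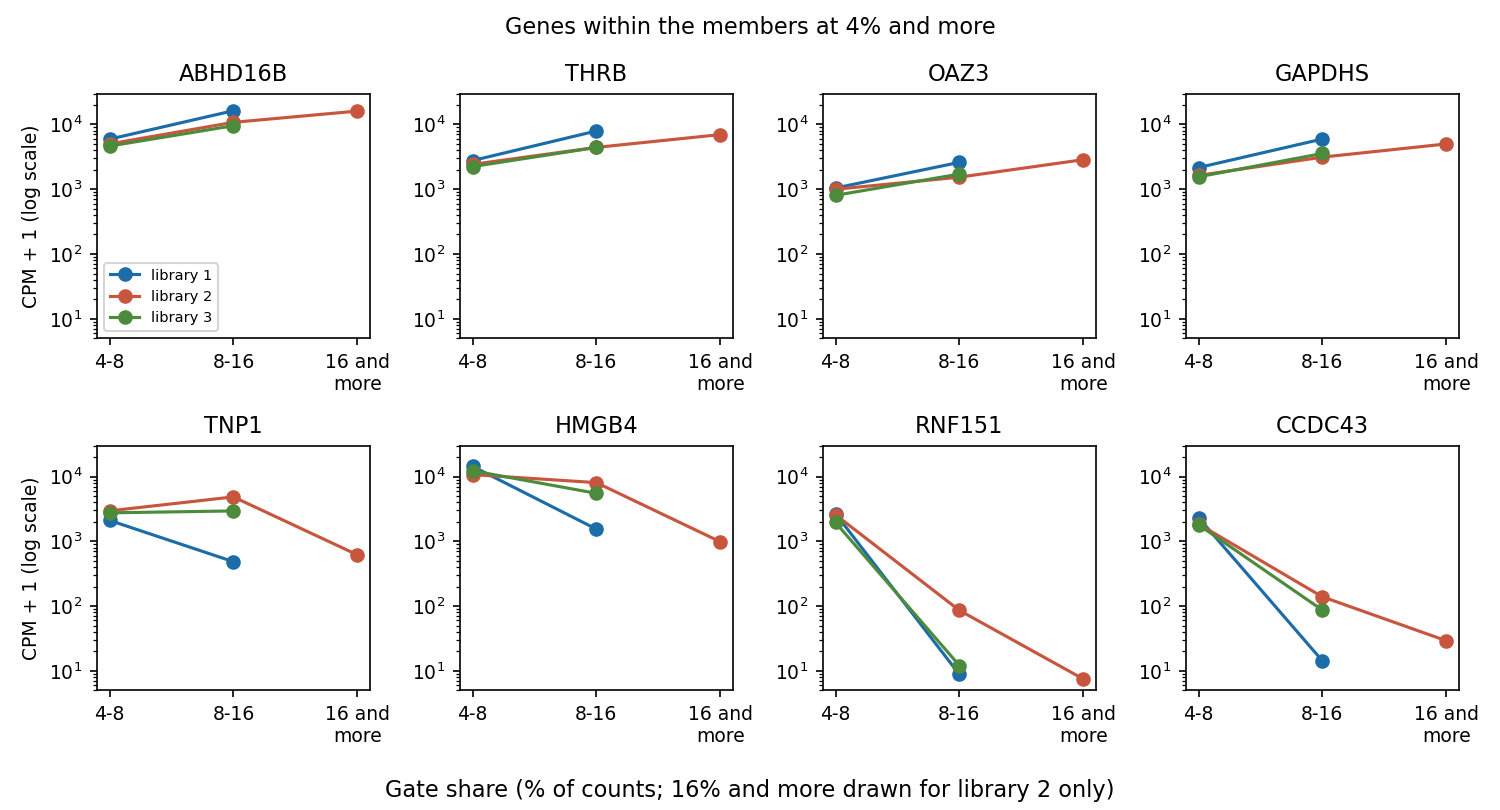
CPM + 1 (y axes, log scale) of 8 genes in members at 4 to 8%, 8 to 16% and 16% and more of counts in the gate genes (x axes), one line per opossum library; the last group is drawn for replicate 2 only. The upper genes are higher at 8 to 16% than at 4 to 8% in each library, and RNF151 and CCDC43 are lower by an order of magnitude or more.

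The bulk libraries allow a test that the gate did not use, on the age at which these transcripts appear in the opossum testis. In bulk tissue, fewer cells of a type and less RNA per cell cannot be told apart. Values are TPM (transcript levels corrected for length and scaled to a common total) as the authors deposited them, and log2 differences are on the log2(TPM + 1) scale, which understates changes of low genes. A gene was called at a limma adjusted p under 0.05 and an absolute log2 difference of at least 1. Between 1 and 3 months 7075 of 18890 genes (37.5%) rose and 2922 (15.5%) fell, with a median log2 difference of 0.82. Between 3 months and the adult 234 (1.24%) rose and 216 (1.14%) fell, with a median of -0.20. Counts of the later step rested on single libraries. The number of genes that rose was 585 without adult replicate 1, 102, 150 and 117 without adult replicates 4, 5 and 7, and 71, 110 and 74 without replicates 1, 2 and 4 of 3 months. The number that fell ranged from 15 (without replicate 1 of 3 months) to 739 (without adult replicate 3).

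PRM1 was at 0.333 and 0.407 TPM at 1 month and at 0 in the polyA library of 2 months. The rRNA-depleted libraries of 2 months held 7.63, 2.21 and 0.0389 TPM. At 3 months the lowest, median and highest PRM1 values were 1179, 2017 and 3304 TPM, and in the 6 polyA libraries of adults 7533, 11945 and 17550 TPM. No library of 3 months overlapped with 1 month or with the adults. PRM1 rose by a log2 difference of 10.44 (SE 0.43) from 1 to 3 months, with a limma adjusted p of 7.19e-10, and by a further 2.59 (SE 0.32) to the adult, with an adjusted p of 0.00103. The later rise was called with each of the 10 libraries of 3 months and adults left out in turn.

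The other gate genes did not share this course. MSMP was at 1.48 and 1.37 TPM at 1 month and between 979 and 1123 TPM at 3 months, a log2 difference of 8.75 with a limma adjusted p of 4.38e-09, and did not pass the test to the adult (adjusted p = 0.326). GPR161 was at 5.96 and 7.69 TPM at 1 month, at a median of 31.6 TPM at 3 months and at a median of 102 TPM in adults, and rose in both steps (limma adjusted p of 0.00144 and 0.047), the later call being lost with 8 of 10 libraries left out in turn (adjusted p up to 0.184). YIPF5 was at 301 and 290 TPM at 1 month, when PRM1 was under 1 TPM. It fell by 1.61 on the log2 scale to 3 months (adjusted p = 0.000381) and rose by 1.10 to the adult (adjusted p = 0.0195), a call lost with 5 of 10 libraries left out in turn (adjusted p up to 0.0984). PKHD1L1 was at 188 and 188 TPM at 1 month and at a median of 135 TPM at 3 months and 243 TPM in adults, where the log2 difference of 0.88 to the adult (adjusted p = 0.0278) was under the limit of 1. In bulk testis 2 of the 5 gate genes were therefore already abundant at 1 month.

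**Figure D5:**
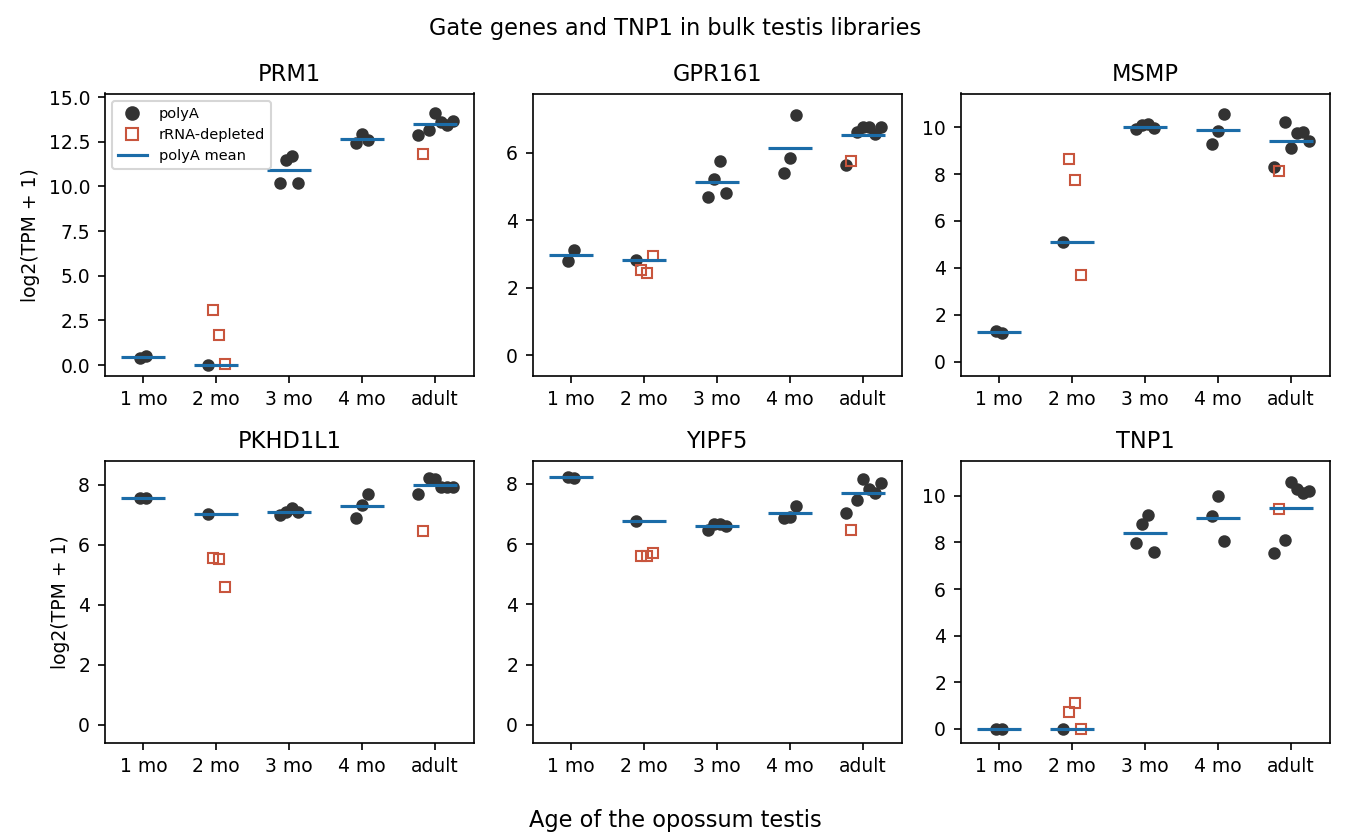
log2(TPM + 1) (y axes) of the 5 gate genes and TNP1 in opossum bulk testis libraries by age (x axes), with polyA libraries as black dots, rRNA-depleted libraries as open squares and a line at the polyA mean. PRM1 and TNP1 reach high values between 2 and 3 months, MSMP is already above its 1-month values at 2 months, and PKHD1L1 and YIPF5 are present at 1 month.

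List counts from 1 to 3 months stand beside 37.5% of all genes that rose and 15.5% that fell. All 12 elongating-spermatid markers outside the gate rose in this step, with a median log2 difference of 5.596. In the step to the adult, where 1.24% of all genes rose, 3 of them (OAZ3, TSSK3 and TSSK6) rose further. TNP1 was at 0 in both libraries of 1 month, between 191 and 583 TPM at 3 months and between 184 and 1532 TPM in adults. It rose by a log2 difference of 8.39 (limma adjusted p = 1.36e-06) to 3 months, and the later difference of 1.08 did not pass (adjusted p = 0.332). TSSK6, a kinase needed for histone removal in mouse, rose by 5.61 and then by 2.51 (adjusted p of 1.44e-06 and 0.00576). Flagellar genes rose in the first step: 8 of 8 genes of the dense fibres and fibrous sheath and 38 of 38 axoneme genes. None of the genes of either list was called between 3 months and the adult, where the median log2 difference was 0.48 for the fibre and sheath genes and -1.14 for the axoneme genes. Without adult replicate 1, 3 of the 8 fibre and sheath genes rose, and 2 of the 38 axoneme genes rose and 1 fell, against 3.10% and 2.08% of all genes. All 12 acrosome genes and 19 of 24 manchette genes rose in the first step. Of the ribosomal protein genes 26 of 40 fell and 1 rose.

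Of the 25 leading genes 19 rose from 1 to 3 months, with a median log2 difference of 5.38, and 2 fell, against 37.5% and 15.5% of all genes. The 2 were MCFD2, by 1.78 (limma adjusted p = 0.000909), and CLDND1, by 1.13 (adjusted p = 0.00454), the latter call being lost with 1 of 6 libraries left out in turn. THRB, among the 19, lost its call with 4 of 6 (adjusted p up to 0.118). Both encode proteins of many cell types, and CLK4, TPRG1L, ARPP19 and BPGM were not called. Between 3 months and the adult 9 of the 25 rose and none fell, against 1.24% and 1.14% of all genes. They were TMEM239, HIST1H4I, ABHD16B, CCDC70, TMEM247, TPRG1L, OAZ3, TSSK3 and BPGM. TMEM239, ABHD16B and TSSK3 were called with each of the 10 libraries left out in turn, and the other 6 lost the call for between 2 (CCDC70) and 8 (OAZ3) of them. ABHD16B was at 0 TPM at 1 month, at a median of 259 TPM at 3 months and at a median of 1457 TPM in adults. ENSMODG00000030245, the X-linked gene described above, was at 0 TPM at 1 month, at a median of 65.1 TPM at 3 months and at 2432 TPM in adults, a later log2 difference of 5.14 (limma adjusted p = 0.000679). THRB was at a median of 2.35 TPM at 3 months and 2.54 TPM in adults, with a log2 difference of -0.12 between them (adjusted p = 0.878). This bulk level is low beside the counts of THRB in gated cells, and whether both kinds of table count the same 3-prime end of the gene was not checked, so the level of THRB is uncertain. Without adult replicate 1, the count of leading genes that rose to the adult was 16 in place of 9 and that of elongating-spermatid markers 6 in place of 3, while 585 of 18850 genes (3.10%) rose over all. This library was the lowest of the adult polyA libraries for several leading genes, as given below, so leaving it out favours a rise. List counts without any other library were not made.

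The last comparison set members against mouse spermatids. Mouse cells were taken where Prm1, Prm2, Tnp1 and Tnp2 made up at least 3% of counts and at least 20 counts, which gave 4327, 2163 and 2673 cells in the 3 mouse libraries. Summed counts per library were tested with edgeR's quasi-likelihood test over 8669 genes matched by symbol. Of these, 2952 (34.1%) were higher in opossum and 2335 (26.9%) lower, with a median log2 difference of 0.35. For members at 4% and more 1647 of 6938 genes (23.7%) were higher and 2828 (40.8%) lower, with a median of -0.88. The gates of the 2 species share PRM1 and otherwise hold different genes, so the gate genes were not tested, and the shares of somatic RNA above enter the opossum sums.

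Of the gate genes, GPR161, MSMP and PKHD1L1 were under 1 CPM in the mouse cells. PRM1 had a mean of 49135 CPM in mouse, and GPR161, MSMP, PKHD1L1 and YIPF5 had means of 0.0901, 0.575, 0.489 and 11.04 CPM. TNP1 was at 18090, 13903 and 28177 CPM in the mouse libraries and at 1598, 3036 and 2770 CPM in opossum members at 4% and more. The ranges of TNP1 did not overlap, but the mouse gate used this gene and no test was made.

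Of the 25 leading genes 22 were measured in both species. They were chosen for a high level in opossum members, which favours opossum in this comparison, so that their counts and differences are a description. In all members 11 were higher in opossum than in mouse and 5 lower (OAZ3, SPACA9, TPPP2, TSSK3 and SPATA19), against 34.1% and 26.9% of all genes. At 4% and more 19 were higher and 1 lower (SPATA19), against 23.7% and 40.8%. THRB was at 2.40, 0.801 and 0.910 CPM in the mouse libraries, against 1588, 1692 and 922 CPM in members. It differed by 8.74 on the log2 scale (SE 0.66) in all members and by 11.89 (SE 0.70) at 4% and more, with the same uncertainty of its level. CCDC43 had a mean of 3.53 CPM in mouse and differed by 6.52 in all members and 8.94 at 4% and more. OAZ3, which is also among the elongating-spermatid markers, was at 4988, 4224 and 1593 CPM in mouse, with log2 differences of -3.76 (edgeR adjusted p = 7.2e-06) for all members and -0.85 (adjusted p = 0.107) at 4% and more.

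Of the 12 elongating-spermatid markers 11 were tested. In all members none was higher in opossum and 10 were lower, while at 4% and more 3 were higher (TSSK3, ODF1 and AKAP4) and 4 lower (HOOK1, TSSK6, CAPZA3 and CCIN). Among all genes tested 34.1% were higher and 26.9% lower in all members, and 23.7% and 40.8% at 4% and more. The direction for this list thus differed between all members and members at 4% and more. OAZ3 had means of 618 CPM in members and 1380 CPM at 4% and more, a smaller step than its log2 differences give. Genes were filtered and scaled anew for each set of opossum cells. The part of scaling in this shift was not told apart from that of the cells. TSSK6 was lower with both, at 1486, 1618 and 1371 CPM in mouse against 42.0, 70.3 and 23.9 CPM in members, with log2 differences of -6.29 (edgeR adjusted p = 1.95e-07) and -3.64 at 4% and more. In the other lists, 8 of 12 tested peritubular markers were higher in all opossum members than in mouse and none lower, and at 4% and more 1 of 8 was higher and 3 lower. The genes of the fixed lists with the largest differences in all members included CRISP2, a cysteine-rich protein of the acrosome and flagellum, with means of 3159 CPM in mouse and 2.08 CPM in opossum (log2 difference -11.82, edgeR adjusted p = 3.02e-09). ATP8B3, a lipid flippase of the acrosome, had 431 CPM in mouse and 0.981 CPM in opossum, and SLC16A7, a monocarboxylate transporter, 281 CPM and 0.981 CPM. SPAM1, the sperm hyaluronidase, was at a mean of 18.4 CPM in mouse and at 0 in the opossum members. Genes were matched by symbol alone, and a copy under another name would be missed. In the other direction EVC, a cilium protein of hedgehog signalling, had 76.2 CPM in all members and 16.7 CPM at 4% and more and HHIP, a hedgehog-binding protein, 20.03 and 0.802 CPM, with means of 0.0302 and 0.0354 CPM in mouse.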

How the data were processed

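The 3 opossum and 3 mouse single-cell matrices (10x Genomics 3-prime chemistry, Cell Ranger 6.0.1 per the submitters' processing notes) hold estimated counts per gene and barcode as the authors deposited them, mostly not whole numbers; the step that made them fractional is not given in the sources used here. The opossum matrices held 10916, 12856 and 12426 barcodes and 25771011, 37747724 and 22710048 counts. Opossum coordinates are those of the bulk tables. The submitters' processing notes list the mouse build GRCm39 for every sample, opossum included, and the label of opossum single-cell replicate 3 gives ASM229v1, so the build of the bulk coordinates is uncertain. Bulk reads went through HISAT2 2.2.1, SAMtools 1.12 and StringTie 2.1.4 per the submitters' processing notes. Per the file headers, the deposited bulk tables hold coverage (a signal, not tested here), FPKM and TPM per gene. TPM was tested, and the deposited FPKM served as an alternative; the read depth of the bulk libraries is unknown.

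Counts were summed per library over members, members at 4% and more, and other cells, and scaled to CPM. A symbol-less or repeated gene was followed by its identifier. No doublets were removed; Scrublet scores (scanpy 1.11.5) are given as values. Gene lists and members were chosen with earlier results of these data known. The text names the 5 gate genes, 25 leading genes, 8 low genes, the 10 most abundant genes (at most 2 without a symbol), up to 4 genes of each list by CPM with those against the list's direction, and up to 4 genes a direction between species; other named genes were chosen after their values were seen. A planned search for genes whose bulk course is most like that of PRM1 is not reported, because the bulk libraries fall into clusters by age. Bulk genes with at least 1 TPM in 2 libraries were tested with limma 3.58.1 on log2(TPM + 1) over the 16 polyA libraries. Species sums, rounded to whole numbers, were tested with edgeR 4.0.16 (TMM, filterByExpr), with DESeq2 1.42.0 as an alternative, over 10751 symbols that occur once in each species. Both tests were adjusted by Benjamini and Hochberg, and the scripts were tested on simulated data. Between species, same-numbered libraries deviated together weakly, with correlations of deviations from 0.0667 to 0.207 against -0.154 to 0.021 for unlike numbers. Between adults and 3 months they did not, with correlations from -0.262 to 0.0399. The numbers were not taken as pairs, and results with the replicate number as a block are given as an alternative. No sequence is shown for these genes.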

Additional observations from a re-analysis of the deposited data

Results flagged for a closer look

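Of 60 groups tested for a sample far from the others, 7 were marked, all in the 6 polyA libraries of adult bulk testis; chance marks about 1 in 20 groups. In each of the 7 genes adult replicate 1 was the lowest library by a wide gap, and the 7 were therefore not independent of each other. GPR161 was at 48.4 TPM there against 92.0 TPM in the next library. The splicing-factor kinase CLK4 was at 50.5 TPM against 253.9 TPM, CCDC70 at 145.4 TPM against 324.3 TPM, and the ring-finger gene RNF151 at 123.5 TPM against 345.6 TPM. PLAAT1, a phospholipid acyltransferase, was at 69.4 TPM against 208.2 TPM, CCDC43 at 57.5 TPM against 212.9 TPM, and the channel subunit CNGB3 at 5.05 TPM against 17.7 TPM. CLK4, RNF151, PLAAT1, CCDC43 and CNGB3 were also among the 9 leading genes that were lower in opossum cells at a gate share of 8 to 16% than at 4 to 8%. The low values were not particular to these genes. Adult replicate 1 was also the lowest polyA adult library for PRM1 (7533 TPM), MSMP (310 TPM), PKHD1L1 (205 TPM) and YIPF5 (130 TPM). The same held for ABHD16B (642 TPM), OAZ3 (296 TPM) and TPPP2 (54.9 TPM), which were not called lower at 8 to 16%. It was not the lowest for TMEM239, at 530 TPM against 290 TPM in the lowest library.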

How the results depend on the processing

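The gate decided how many cells were members. Their mean share of kept cells, 45.2%, was 25.4% with a gate share of 1%, 55.5% with 0.25%, 19.7% with 2000 counts, 63.4% with 500 counts, 4.87% without PRM1, 53.9% with counts rounded up and 2.52% at 4% and more, and from 41.1% to 49.2% without one library. Genes called higher in members stayed within 1.5 times of 1446 in all 13 alternatives (1490 to 1715 without one library). The 2849 genes called lower, of 11861 tested, became 1671 with at least 50 CPM, where only 5764 genes were tested. They became 4807 with a gate share of 1%, 5700 with 2000 counts, 8253 at 4% and more and 1899 below 4%, and 3049 to 4033 without one library. Of single-gene ratios 448 moved by less than the spread between libraries and 163 by more. None of the genes called higher or lower changed sign, and changes of sign were not counted for genes not called. With each cell weighted equally, the 24 genes higher at 8 to 16% than at 4 to 8% became 10 and the 824 lower became 676, with 6690 genes tested in place of 4692. A comparison with round spermatids alone was not run, because 4, 31 and 32 such cells were left.

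In bulk testis the 7075 genes that rose from 1 to 3 months became 4454 to 6771 without one library, 4501 and 4454 of these with a single library of 1 month, assumed to vary like the other groups; the 2922 that fell became 2020 to 2811. The median log2 difference of all genes from 1 to 3 months, 0.82, was 1.35 with a pseudocount of 0.1, 0.20 with no filter and 0.47 with FPKM. The 234 genes that rose from 3 months to the adult became 404 with FPKM and 71 to 585 without one library. The 216 that fell became 88 with a pseudocount of 0.1, 112 with no filter, 137 with FPKM, 352 with all 20 libraries and 15 to 739 without one library. With the replicate number as a block (limma), 9 rose and 0 fell, and 4387 genes had an unadjusted p under 0.05 against 3926 without the block; the numbers do not pair these libraries. Between 1 and 3 months the replicate block gave 6071 and 2600, and between species 2990 and 2408.

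Between species, the 2952 genes higher in opossum became 1647 at 4% and more and 2498 to 2949 without one library, and the 2335 lower became 2133 to 2522. The median log2 difference was 0.35 with TMM and 0.12 with RLE factors, DESeq2 calling 2774 and 2632 genes. Over all genes, where changes of sign were not counted, the median moved from 0.35 to -0.88 with members at 4% and more. Signs were compared only for leading genes, elongating-spermatid markers and most abundant genes, with an edgeR adjusted p under 0.05 for either set of members. Among these, the log2 difference of 13 genes changed sign, from negative to positive, against the move of the median. It met the limits of the edgeR call for 9: AKAP4 to 1.02, CCDC70 to 2.12, HMGB4 to 1.505, ODF1 to 1.90, PLAAT1 to 2.32, RNF151 to 1.49, TMEM247 to 2.80, TPPP2 to 1.28 and TSSK3 to 1.60. It did not meet them for AKAP3 (0.46, edgeR adjusted p = 0.341), GAPDHS (0.21, 0.6645), ODF2 (0.41, 0.381) and SPACA9 (0.46, 0.336). CCDC70, PLAAT1, RNF151, SPACA9, TMEM247, TPPP2 and TSSK3 are leading genes, and HMGB4 is among the most abundant. They were chosen for a high level in opossum members, and the 4% limit was set after seeing the values. Their differences are therefore a description. Each set of opossum cells was filtered and scaled by itself, and the cause of these shifts was not tested.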
